A study of Homo sapiens with 8 samples.

Results

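The Kelch-like genes encode proteins that mostly carry an N-terminal BTB domain, a BACK domain and a C-terminal β-propeller built of Kelch repeats. They were followed here through selective ribosome profiling of 2 chaperones, TRiC and prefoldin (PFD). Members were the protein-coding genes with a KLHL or KBTBD symbol followed by a number, together with KEAP1, that reached 20 counts summed over the 4 input libraries. The rule kept 38 of the 47 annotated family genes, namely 30 KLHL genes, 7 KBTBD genes and KEAP1, out of 60664 gene identifiers in the count tables and 14668 protein-coding genes that reached the same input count. The 9 family genes below it were KLHL1, KLHL6, KLHL10, KLHL33, KLHL34, KLHL40, KLHL41, KBTBD12 and KBTBD13.

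All libraries came from U-2 OS, a human cell line established from an osteosarcoma. One line carried a HaloTag knocked into a loop of the TRiC subunit CCT4 (CCT4-Halo), and the other carried a HaloTag on the PFD subunit PFDN4 (PFDN4-Halo). Both were single clones made by genome editing, so each line stands for 1 clone, and no untagged line was analysed here. Cells for all libraries, inputs included, were treated with cycloheximide (100 µg/ml for 1 min) and the crosslinker DSP (2 mM for 30 min). Each line gave total ribosome-protected fragments (RPFs) from the ribosome pellet, called the input, and RPFs recovered by pulldown of the tag. There were 2 biological replicates in each of the 4 groups. The pulldown was set against the input of the same line, which asks whether ribosomes translating a message carried the tagged chaperone more or less often than ribosomes on other messages.

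Most Kelch-like proteins are adaptors of the CUL3 ubiquitin ligase. The BTB domain binds CUL3, and the propeller holds the protein to be ubiquitylated. KEAP1 is the best known member, since it delivers the transcription factor NRF2 (encoded by NFE2L2) for degradation until oxidants or electrophiles modify it. TRiC is a double-ring ATPase that encloses folding proteins, actin, tubulin and many β-propellers among them, and PFD is a jellyfish-shaped hexamer that hands substrates to it.

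Each Kelch repeat contributes a blade of the propeller and carries a pair of neighbouring glycines, which are encoded by the in-frame codon pair GGNGGN. The coding sequences of the 38 members held 2 to 14 such pairs, with a median of 7. The median over 20046 protein-coding genes was 2, and 11.4% of them held at least as many as the median member. Pairs were counted on the coding strand and in frame only, and overlapping pairs were counted separately. The stretches below show the 180 coding bases richest in such pairs (in capitals) for the 4 best-covered genes called in the TRiC pulldown. They are from the canonical transcripts of GENCODE release 44 on hg38, and run 5′ to 3′ on the coding strand. KEAP1 lies on the minus strand within 1 coding exon at chr19:10491765-10491944. KLHL17 lies on the plus strand over 3 coding exons of chr1:962884-963337, KLHL29 on the plus strand over 2 coding exons of chr2:23696440-23703291, and KLHL3 on the minus strand over 3 coding exons of chr5:137639110-137658151.
KEAP1: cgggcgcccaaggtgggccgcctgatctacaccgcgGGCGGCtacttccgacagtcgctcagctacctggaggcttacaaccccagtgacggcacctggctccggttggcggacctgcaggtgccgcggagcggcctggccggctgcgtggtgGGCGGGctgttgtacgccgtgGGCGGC
KLHL17: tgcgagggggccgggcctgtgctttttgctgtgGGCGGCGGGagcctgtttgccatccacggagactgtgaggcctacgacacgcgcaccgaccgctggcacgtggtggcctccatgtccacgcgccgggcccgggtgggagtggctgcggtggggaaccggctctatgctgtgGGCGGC
KLHL29: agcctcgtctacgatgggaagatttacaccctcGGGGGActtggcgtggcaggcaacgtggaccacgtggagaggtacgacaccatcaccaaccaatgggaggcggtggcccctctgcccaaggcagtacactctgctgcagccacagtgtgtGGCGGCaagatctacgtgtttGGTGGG
KLHL3: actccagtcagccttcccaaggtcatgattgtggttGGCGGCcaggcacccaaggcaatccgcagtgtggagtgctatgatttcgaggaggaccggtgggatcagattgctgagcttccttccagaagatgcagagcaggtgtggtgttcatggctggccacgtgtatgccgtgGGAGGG
All 4 stretches end on a GGNGGN pair because the earliest window with the most pairs was taken, so that ending says nothing about the genes. The KEAP1, KLHL17 and KLHL29 stretches hold 3 pairs, with an overlapping run in KLHL17, and the KLHL3 stretch holds 2.

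Only uniquely aligned reads were counted, so genes with copies elsewhere lose reads. KBTBD6 and KBTBD7 are neighbouring paralogues that serve as CUL3 adaptors for the RAC1 activator TIAM1. Of their 28-base windows, about the length of an RPF, 34.0% in KBTBD6 and 33.5% in KBTBD7 occurred more than once in hg38. Their longest identical run was 301 bases. The 120 coding bases at the end of that run, on the minus strand at chr13:41131400-41131519 and chr13:41193146-41193265, show where the copies part, with the 9 differing bases in capitals.
KBTBD6: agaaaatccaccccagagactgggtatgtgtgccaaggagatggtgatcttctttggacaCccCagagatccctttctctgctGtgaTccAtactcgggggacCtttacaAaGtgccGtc
KBTBD7: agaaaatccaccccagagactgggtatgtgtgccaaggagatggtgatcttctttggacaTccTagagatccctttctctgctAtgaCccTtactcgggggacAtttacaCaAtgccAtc
The share of repeated windows was 30.8% for KLHL12, 18.7% for KLHL2 and 9.05% for KLHL5, and below 3% for each other member. Levels of KBTBD6, KBTBD7, KLHL12 and KLHL2 are therefore uncertain. KBTBD4 is uncertain for another reason, since opposite-strand exons cover 55.7% of its exon bases and the strand setting of the counting is not given in the sources used here.

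Library totals ranged from 9523128 to 32637658 counts. Replicates were closer in the TRiC line than in the PFD line. The median difference between replicates over 37 members was 1.10-fold in the TRiC input, 1.16-fold in the TRiC pulldown, 1.40-fold in the PFD input and 1.56-fold in the PFD pulldown (0.5 added to each CPM value, which is a gene's count scaled to the size of its library). In the same order, 0, 0, 8 and 13 members differed by more than 2-fold between replicates. The mesenchymal and bone markers COL1A1 (45087 to 154571 counts), SPARC, VIM and RUNX2 were high in every library. COL1A2, of the same class, was low (1 to 66 counts), and ALPL ranged from 62 to 811 counts, with every PFD library above every TRiC library. The later bone markers IBSP (0 counts), SP7 (0 to 8) and BGLAP (0 to 24) were absent or near 0, as were the blood markers PTPRC (0 to 5) and CD3E (0) and the liver marker ALB (0 to 6). The epithelial marker EPCAM had 1 count in PFD pulldown replicate 1 and 189 to 277 counts in the other libraries, while CDH1 had 0 to 21. The muscle markers MYOD1 (0 to 14) and ACTA1 (3 to 60) were low.

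Members made up a small part of translation, at 0.0846% of all input counts in each line. Levels are given as CPM per coding kilobase, scaled over all 8 libraries. In bulk libraries, fewer cells with a message and less RNA or fewer ribosomes per cell cannot be told apart. KEAP1 was the highest member in both lines, at 36.5 ± 1.11 in the TRiC input and 44.3 ± 3.92 in the PFD input (mean ± SD, n = 2 throughout). KLHL9 stood at 36.1 ± 3.53 in the TRiC input, which overlapped KEAP1, and at 28.8 ± 6.97 in the PFD input. It is a mitotic adaptor that acts on Aurora B, as do KLHL13 and KLHL21. KBTBD2, which controls the p85α subunit of PI3-kinase, stood at 30.2 ± 2.83 and 36.2 ± 2.03.

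KLHL25, an adaptor for the translation repressor 4E-BP1, stood at 24.0 ± 1.83 CPM per coding kilobase in the TRiC input and 31.5 ± 5.46 in the PFD input. KLHL11 was at 24.9 ± 1.03 and 22.5 ± 1.88, and KLHL5 at 19.9 ± 1.37 in the TRiC input and 16.8 and 20.7 in the PFD inputs. KLHL42, an adaptor for the microtubule-severing protein katanin, was at 15.2 ± 0.633 and 24.9 ± 9.46. KLHL21 was the exception among these 8 most abundant members, with 6.24 ± 1.41 in the TRiC input and 36.9 ± 4.41 in the PFD input. Along the order of levels, neighbours overlapped between replicates in 20 of 36 pairs in the TRiC input and in 34 of 36 pairs in the PFD input, so the order in the PFD line is mostly not resolved. At 0.5 reads per codon summed over replicates, 30 members were covered in the TRiC input, 30 in the TRiC pulldown, 23 in the PFD input and 25 in the PFD pulldown, and 23 in all 4 groups.

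**Figure D1:**
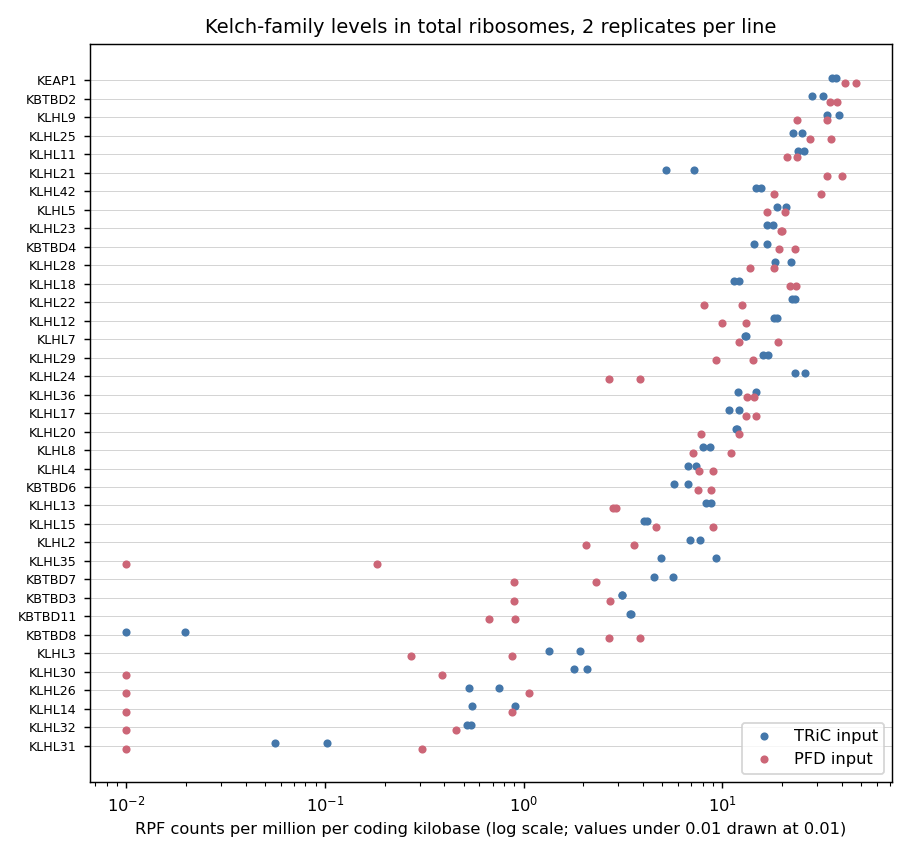
Levels of 37 members in the inputs, in CPM per coding kilobase on a log axis, with a point for each of the 2 replicates per line and values under 0.01 drawn at 0.01. KEAP1 is at the top at 36.5 in the TRiC line and 44.3 in the PFD line. KLHL21, KLHL24, KLHL30, KLHL35 and KBTBD8 are among the genes whose lines lie far apart.

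In the TRiC pulldown, KLHL17, KLHL29, KLHL3 and KLHL31 were higher than in the TRiC input and KEAP1 was lower. These were 4 higher and 1 lower of 36 members tested, at an adjusted p under 0.05 in edgeR's quasi-likelihood test. Across all 17934 genes tested, 8.64% were called higher and 10.6% lower. Of the 14611 protein-coding genes among them, 1168 were higher and 1738 lower (median log2 fold change -0.030). Against this background 11.1% of the members were higher and 2.78% lower. Log2 fold changes of the members ran from -0.67 to 2.73 with a median of 0.05, 19 above 0 and 17 below, and the median over all genes was -0.0032. KBTBD8 (0 to 7 counts) and KLHL38 (0 to 4 counts) were too low to test.

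KEAP1 had 67.6 and 70.6 CPM in the TRiC inputs and 56.1 and 46.8 CPM in the TRiC pulldowns. Both pulldowns lay below both inputs, and the gap exceeded the spread within either group. The log2 fold change was -0.42 (SE 0.10, edgeR adjusted p = 0.00787), or 1.34-fold lower. In the PFD line KEAP1 stood at 75.8 and 87.9 CPM in the inputs and 89.2 and 83.9 CPM in the pulldowns. These overlapped, with a log2 fold change of 0.08 (95% interval -0.36 to 0.52, edgeR adjusted p = 0.978).

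KLHL17, also called actinfilin after its binding to actin filaments, had 23.5 and 21.1 CPM in the TRiC inputs and 31.6 and 32.8 CPM in the TRiC pulldowns. The groups did not overlap, and the log2 fold change was 0.53 (SE 0.12, edgeR adjusted p = 0.00535). In the PFD line its 27.7 and 25.3 CPM in the inputs met 33.3 and 26.1 CPM in the pulldowns, with a log2 fold change of 0.16 (95% interval -0.60 to 0.93).

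KLHL29 had 44.8 and 42.4 CPM in the TRiC inputs and 58.1 and 57.5 CPM in the TRiC pulldowns. Replicates nearly coincided, and the log2 fold change was 0.41 (SE 0.10, edgeR adjusted p = 0.00726). In the PFD line it had 36.5 and 24.3 CPM in the inputs and 19.3 and 30.7 CPM in the pulldowns, which overlapped.

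KLHL3, the adaptor for WNK kinases in the distal nephron and a gene of familial hyperkalaemic hypertension, was low, with 2.38 and 3.43 CPM in the TRiC inputs and 5.61 and 5.12 CPM in the TRiC pulldowns. The log2 fold change was 0.88 (SE 0.29, edgeR adjusted p = 0.0401). The call was lost in DESeq2 (adjusted p = 0.0704) and in limma after cyclic loess (adjusted p = 0.0695), with 0.0209 to 1 over all alternatives. KLHL31, known from skeletal muscle, rested on very few reads, 3 and 6 counts in the TRiC inputs and 47 and 17 counts in the TRiC pulldowns, and the fitted log2 fold change was 2.73 (SE 0.86, edgeR adjusted p = 0.0341). It passed the filter on low counts only through the pulldowns, where it is high, so its place among the 4 higher members follows in part from that filter. It was not called by limma after cyclic loess (adjusted p = 0.114, with 0.0213 to 0.967 over all alternatives).

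**Figure D2:**
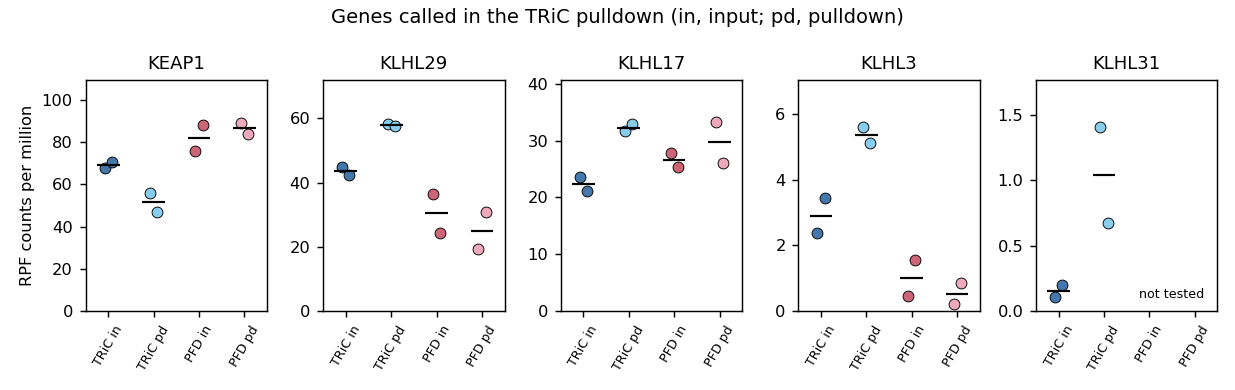
RPF levels in CPM in each library for the 5 genes called in the TRiC pulldown, with a point per replicate and a bar at the mean of 2, scaled within each line on axes that start at 0. KEAP1 falls from 69.1 to 51.4 and KLHL29 rises from 43.6 to 57.8 in the TRiC line, while their PFD input and pulldown points overlap, and KLHL31 was not tested in the PFD line.

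Some calls were lost when a library was left out, which leaves 1 replicate in its group. The SE of KEAP1 was 0.103 in the main fit and 0.146 without TRiC input replicate 2. Without TRiC input replicate 2, KEAP1 (edgeR adjusted p = 0.0591), KLHL29 (0.134) and KLHL17 (0.110) were no longer called, with log2 fold changes of -0.40, 0.36 and 0.44. KLHL3 lost its call without TRiC input replicate 1 (0.291) or TRiC pulldown replicate 1 (0.0672), and KLHL31 without either input (0.195 and 0.102) or TRiC pulldown replicate 1 (0.354). Over 11 alternatives the adjusted p of KEAP1 ran from 8.58e-06 to 0.389 and its log2 fold change stayed below 0. With all 8 libraries in one edgeR fit, which shares the wider spread of the PFD line, no member was called, and 2 of 37 reached an unadjusted p under 0.05 (8.04% of all genes).

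Among the other most abundant members, KLHL5 went from 40.6 and 44.8 CPM in the TRiC inputs to 49.8 and 52.2 CPM in the TRiC pulldowns and missed the threshold (log2 fold change 0.26, edgeR adjusted p = 0.0870). It was called in limma after cyclic loess (adjusted p = 0.0420), and by edgeR with at least 100 counts in every library (0.0178) and with the replicate block (0.0321). KBTBD2, KLHL9, KLHL11, KLHL25 and KLHL42 had log2 fold changes from -0.19 to 0.19, and none was called. KLHL35, the lowest log2 fold change of the members with a mean of at least 100 counts, had 16.5 and 8.68 CPM in the TRiC inputs and 7.08 and 9.49 CPM in the pulldowns. The groups overlapped (log2 fold change -0.61, edgeR adjusted p = 0.0952). The value hung on single libraries, at -0.07 without TRiC input replicate 1 and -1.01 without TRiC input replicate 2 (adjusted p = 0.00102). It was also called lower without TRiC pulldown replicate 2 (0.00214) and with no filter on low counts (0.0199). KBTBD11 was next at -0.44, with 6.56 and 6.51 CPM against 4.05 and 5.60 CPM (edgeR adjusted p = 0.223).

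Fold changes in the TRiC pulldown followed coding length across genes, with a Spearman's rho of 0.30 over 36 members and 0.35 over 14611 protein-coding genes. They ran against the GC content of the coding sequence, with -0.25 over members and -0.20 over all. For the number of GGNGGN pairs the values were -0.09 and 0.11. Genes are not independent replicates, all points share the same 4 libraries, and longer genes hold more counts.

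In the PFD pulldown no member was called among the 33 tested. Over 14111 genes, 0.0496% were called higher and 0.191% lower, so few calls were made on any gene. At an unadjusted p under 0.05 the test found 2 members, KLHL35 and KBTBD4, where 6.93% of all genes passed. Members ranged from -1.28 to 6.31 in log2 fold change, with a median of 0.08 (17 above 0 and 16 below) against -0.00048 over all genes. KLHL14, KLHL30, KLHL31, KLHL32 and KLHL38 were too low to test.

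KLHL35 had 6 and 0 counts in the PFD inputs and 242 and 98 counts in the PFD pulldowns, or 26.1 and 3.44 CPM. Both pulldowns were above both inputs but differed widely from each other. The gene passed the filter on low counts only through these pulldowns, so it had to differ. The fitted log2 fold change was 6.31 (SE 1.57, edgeR adjusted p = 0.471), and DESeq2 called it (adjusted p = 3.98e-05, with 1.15e-08 to 0.483 over all alternatives). With a library left out the fitted value ran from 4.30 to 10.87. The TRiC line gave 458 and 263 input counts for the same gene, with 236 and 239 after pulldown. The PFD inputs were thus the libraries in which it was nearly absent.

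KBTBD4, an adaptor mutated in a subset of medulloblastomas, had 30.1 and 37.1 CPM in the PFD inputs and 7.01 and 20.3 CPM in the PFD pulldowns. The groups did not overlap, and the log2 fold change was -1.28 (SE 0.53, unadjusted p = 0.0417 and adjusted p = 0.719 in edgeR). KLHL2, an actin-binding adaptor that also acts on WNK kinases, had 6.27 and 3.66 CPM in the inputs and 21.6 and 6.39 CPM in the pulldowns, with a log2 fold change of 1.48 (95% interval -0.40 to 3.36). KLHL4 followed at 0.87, from 18.8 and 16.5 CPM to 40.2 and 24.3 CPM.

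KLHL20, an adaptor for the death kinase DAPK1 and for PML, had 21.7 and 14.3 CPM in the PFD inputs and 30.9 and 31.1 CPM in the PFD pulldowns (log2 fold change 0.78, 95% interval -0.09 to 1.66). KLHL8 went from 20.0 and 13.3 CPM to 4.74 and 12.5 CPM (-0.94), and KLHL42 from 26.9 and 47.7 CPM to 24.6 and 22.6 CPM (-0.66). None of these was called. With each PFD library left out in turn, the log2 fold change ran from 0.35 to 2.10 for KLHL2 and 0.46 to 1.18 for KLHL4. It ran from -2.26 to -0.73 for KBTBD4, -1.82 to -0.43 for KLHL8 and -1.50 to 0.19 for KBTBD2.

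**Figure D3:**
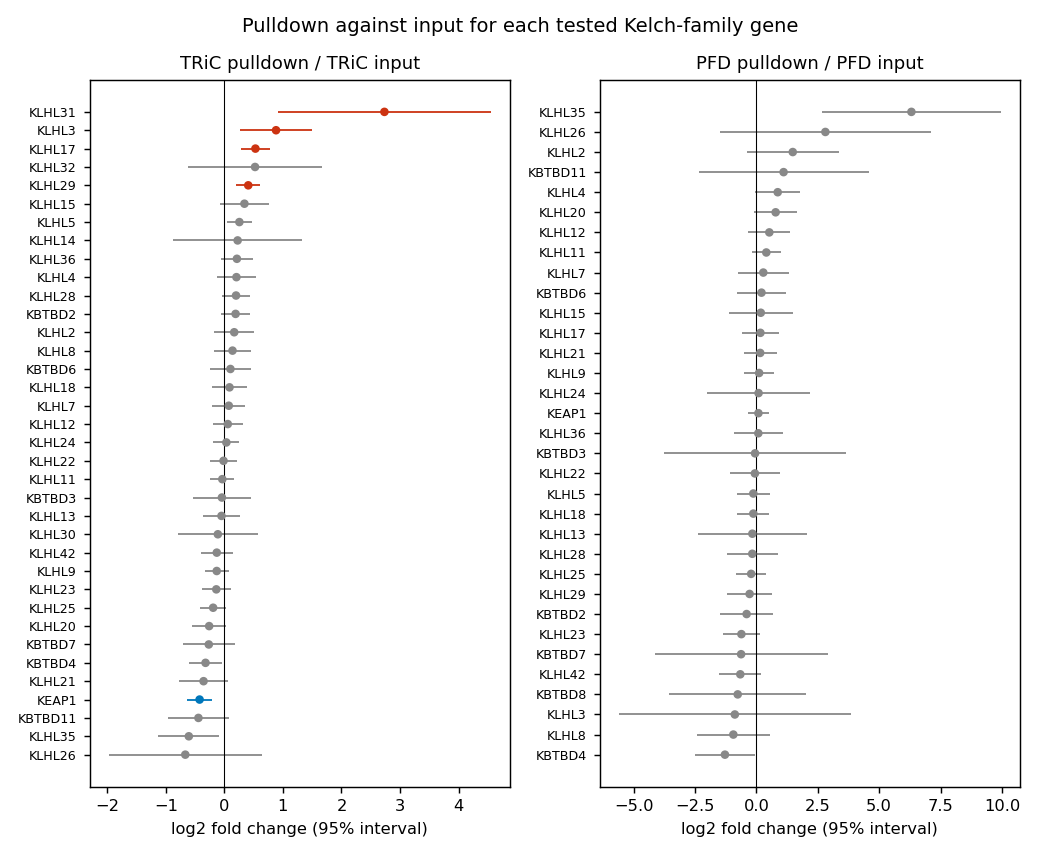
Log2 fold change of pulldown over input, with its 95% interval from edgeR, for each tested member in the TRiC line (left, 36 genes) and the PFD line (right, 33 genes), where red marks genes called higher, blue genes called lower and grey genes not called. The horizontal scales differ, and the median width of the intervals is 0.58 in the TRiC panel and 2.02 in the PFD panel.

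Whether a member's enrichment differed between the chaperones was tested as an interaction in all 8 libraries, taken as the TRiC log2 fold change minus the PFD log2 fold change. None of the 37 members tested passed. Of 18855 genes, 0.0212% were called in favour of TRiC and 0.0159% in favour of PFD. At an unadjusted p under 0.05 edgeR found 4 members, KLHL35, KLHL20, KEAP1 and KLHL32, where 14.8% of all genes passed. DESeq2 called 1 member, KLHL35, and its share over all genes is not given here. KLHL32 had 16 and 0 counts in the PFD inputs, 0 and 0 in the PFD pulldowns, and 27 to 52 in the TRiC libraries. It passed the filter on low counts only through the TRiC line, so its value is a description. For KEAP1 the difference was -0.49 (95% interval -0.94 to -0.05, edgeR adjusted p = 0.317). For KLHL17 it was 0.39 (95% interval -0.27 to 1.05) and for KLHL29 0.69 (95% interval -0.23 to 1.60). The fall of KEAP1 in the TRiC pulldown is thus not shown to differ from its value in the PFD pulldown. Of the 32 members tested in both lines, 17 had the same sign (53.1%, against 50.1% of 13749 genes).

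The inputs of the 2 lines differed for several members. Line, clone and library preparation cannot be told apart in this comparison. Of 37 members tested in the fit of all 8 libraries, 3 were higher in the PFD input (KLHL21, KLHL18 and KBTBD8) and 4 were lower (KLHL35, KLHL24, KLHL13 and KLHL22). KBTBD8 and KLHL35 met the rule for members only through the line whose inputs were higher, so their calls are descriptions. Over all genes, 9.93% were higher and 10.5% lower, so the members changed about as often as other genes. Of 14871 protein-coding genes, 1802 were higher and 1831 lower. The median log2 difference over all genes was -0.18, and it was 0.07 after cyclic loess, so each value below is best read against that shift. KLHL18, KBTBD8, KLHL13, KLHL22 and KLHL24 were named after their values were seen.

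KLHL21 had 13.0 and 9.38 CPM in the TRiC inputs and 60.6 and 71.7 CPM in the PFD inputs. The pulldowns of each line stayed near its own inputs, at 8.98 and 8.45 CPM with TRiC and 89.8 and 55.4 CPM with PFD. The log2 difference between inputs was 2.57 (SE 0.28, edgeR adjusted p = 0.000512), or 5.92-fold. KLHL9, which also acts on Aurora B, was not called (-0.32, 95% interval -0.75 to 0.10).

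KLHL13, which acts on Aurora B too, had 16.9 and 15.8 CPM in the TRiC inputs and 5.58 and 5.41 CPM in the PFD inputs. The log2 difference was -1.57 (SE 0.40, edgeR adjusted p = 0.0281). The call was lost in limma after cyclic loess (adjusted p = 0.0504, with 0.000492 to 0.236 over all alternatives). KLHL24, which acts on intermediate filament proteins and is mutated in a skin fragility disorder, had 42.0 and 46.9 CPM in the TRiC inputs and 6.96 and 4.83 CPM in the PFD inputs. Its log2 difference was -2.90 (SE 0.43, edgeR adjusted p = 0.00237), and the pulldowns of both lines followed their inputs.

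KLHL22, an adaptor for the mTORC1 regulator DEPDC5, had 42.8 and 43.9 CPM in the TRiC inputs and 15.4 and 23.9 CPM in the PFD inputs (log2 difference -1.15, SE 0.25, edgeR adjusted p = 0.0150). KLHL18 had 21.0 and 19.6 CPM against 40.4 and 37.7 CPM (0.94, SE 0.21, edgeR adjusted p = 0.0146). KBTBD8, an adaptor in neural crest specification that ubiquitylates TCOF1 and NOLC1, had 1 and 0 counts in the TRiC inputs and 91 and 72 counts in the PFD inputs. As shares of the input totals this was 327-fold higher in the PFD line, with an exact 95% counting interval of 57.9 to 13007 (counting error only), and edgeR called it (adjusted p = 0.0113). It met the rule for members and the filter on low counts only through the PFD line, so it could be tested only as higher there and its call is a description. KLHL35, with 458 and 263 counts against 6 and 0, was the reverse (log2 difference -6.00, SE 1.26, edgeR adjusted p = 0.0126). It met the rule for members only through the TRiC inputs, so its call is a description as well. The PFD inputs enter both its difference between inputs and that of the PFD pulldown.

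KLHL21 and KLHL24 were called in every alternative in which they were tested, with edgeR adjusted p up to 0.00925 and 0.0385. Without either TRiC input replicate, KLHL18 (0.138 and 0.181), KBTBD8 (0.0691 and 0.120), KLHL22 (0.0938 and 0.102) and KLHL13 (0.236 and 0.197) lost their calls. KLHL18 (0.0843 and 0.0632), KLHL13 (0.0975 and 0.104) and KLHL35 (0.0541 and 0.0854) lost them without either PFD input replicate, and KLHL22 without PFD input replicate 1 (0.0763). KLHL13 also lost its call without either TRiC pulldown (0.103 in both). The signs of all 7 held throughout.

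**Figure D4:**
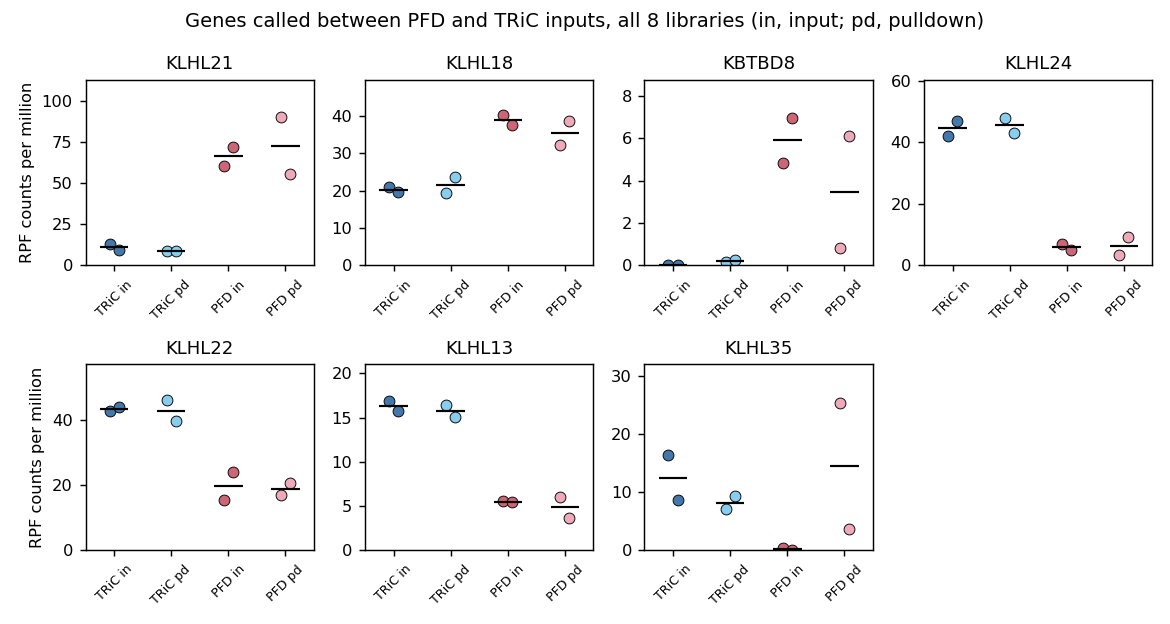
RPF levels in CPM in all 8 libraries for the 7 members called between the PFD and TRiC inputs, with a point per replicate and a bar at the mean of 2, on axes that start at 0. In KLHL21, KLHL24, KLHL18, KLHL22 and KLHL13 the pulldown lies near the input of its own line, while KLHL35 has 25.5 and 3.55 in the PFD pulldowns and 0.319 and 0 in the PFD inputs.

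The partners of the family were read from lists, whose counts in the TRiC pulldown stand beside 8.64% higher and 10.6% lower and a median of -0.0032 over all genes. Of 23 genes of the CUL3 ligase core and its regulators, 1 was higher and 5 were lower in the TRiC pulldown (median log2 fold change -0.16). RBX1, the RING subunit, had -0.38 (SE 0.09, edgeR adjusted p = 0.00742), and UBE2M, the NEDD8-conjugating enzyme, had -0.45 (SE 0.12, adjusted p = 0.0108). CUL3 itself missed the threshold at -0.21 (adjusted p = 0.0836). Of 23 BTB adaptors without Kelch repeats, 1 was higher (BTBD9, 0.39) and 1 lower (TNFAIP1, -0.28). Of 22 tested Kelch propeller genes with other symbols, 3 were higher, led by ATRNL1 (1.08) and KLHDC4 (0.42), and 3 were lower, led by KLHDC8B (-0.40).

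Against the same background, of 21 proteins known as ubiquitylation targets of the members 3 were higher in the TRiC pulldown, led by WNK4 (0.97), and 6 were lower, led by PGAM5 (-0.52), EIF4EBP1 (-0.50) and AURKB (-0.46). NFE2L2 was not called, at -0.11 (SE 0.09, edgeR adjusted p = 0.426). Of 22 tested NRF2 target genes, none was higher and 10 were lower, with a median of -0.26 against -0.0032 over all genes, led by SRXN1 (-0.78), OSGIN1 (-0.61) and HMOX1 (-0.50), the haem-degrading enzyme. In the PFD pulldown edgeR called no gene of the 5 lists. It gave 4 of 106 (3.77%) an unadjusted p under 0.05, against 6.93% of all genes. DESeq2 called 2, and its share over all genes is not given here.

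Between the inputs, 8 of the 22 NRF2 target genes were higher and 1 was lower in the PFD line, with a median of 0.44 against -0.18 over all genes, where 9.93% were higher and 10.5% lower. Of the ubiquitylation targets, 7 of 21 were higher and 3 lower. The Kelch genes with other symbols had 4 of 22 higher and 2 lower, the CUL3 ligase genes 3 of 23 higher and 1 lower, and the other BTB adaptors 3 of 23 higher and none lower. TXNRD1 (1.63), SQSTM1 (1.48) and GCLM (1.13), which serve thioredoxin reduction, selective autophagy and glutathione synthesis, were among the 8. NFE2L2 was higher too, at 0.78 (SE 0.12, edgeR adjusted p = 0.00238), while KEAP1 stood at 36.5 ± 1.11 and 44.3 ± 3.92 CPM per coding kilobase and was not called (0.28, adjusted p = 0.191).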

How the data were processed

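Selective ribosome profiling of CCT4-Halo and PFDN4-Halo U-2 OS lines gave 2 inputs and 2 pulldowns per line. The deposited values are raw counts per gene, made by the authors with UMI-tools, Bowtie2 2.4.2 (removal of non-coding RNA) and STAR 2.7.10a on hg38, from unique alignments, per the study's methods and the submitters' processing notes. The annotation release and strand setting are not given in the sources used here. Identifiers were named through GENCODE release 44 (60463 of 60664 matched). The study's own test works along codons and needs positions, which gene counts do not hold.

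Counts of all genes were fitted with edgeR 4.0.16 (TMM, filterByExpr, quasi-likelihood test, Benjamini-Hochberg adjustment over all genes tested, threshold 0.05) in R 4.3.3, within each line for pulldown against input and over all 8 libraries for the interaction and the inputs. Alternatives used DESeq2 1.42.0, limma 3.58.1 after cyclic loess, library totals, other filters, a shared fit, a replicate block and each library left out. Fitting code was tested on simulated data. With 2 replicates per group, p-values set a difference against the spread between these samples, which is estimated partly over all genes. The replicates of a line come from a single clone, so the spread between clones is not covered. Counting intervals cover counting error only.

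Members and lists were chosen with earlier results of these data known. Named were KEAP1, members called in the PFD pulldown or the interaction, up to 12 called in the TRiC pulldown, the 8 most abundant per coding kilobase, the 3 highest and 3 lowest log2 fold changes per pulldown with a mean of at least 100 counts, and per list CUL3, RBX1, NFE2L2 and up to 4 called genes of largest change.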

Additional observations from a re-analysis of the deposited data

How the results depend on the processing

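In the TRiC pulldown, the 4 higher and 1 lower members became 0 and 0 with all 8 libraries in one fit, and 2 were lower with no filter on low counts. Shares of all genes called under each alternative are not given here, so these counts and those below describe the members only. The members' median log2 fold change was 0.093 with library totals, 0.074 with at least 100 counts in every library, and -0.036 to 0.013 with a library left out. For PFD, 1 member was higher with DESeq2 and with no filter, and leaving out each library gave 0 to 4 higher and 0 to 3 lower. Its median was 0.037 with library totals, 0.086 with DESeq2, 0.023 with cyclic loess, -0.056 with no filter, 0.069 with at least 100 counts, -0.0018 with all 8 libraries in one fit, and -0.017 to 0.031 with a library left out. For the interaction DESeq2 and no filter called 1 member each, and leaving out each library gave 0 to 7. Between the inputs, 2 members were lower with at least 100 counts in every library and 8 with the 4 inputs alone, a setting chosen after seeing the data, and leaving out each library gave 1 to 4 higher and 1 to 9 lower. The cause of these moves was not tested.

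The labels do not say whether same-numbered input and pulldown samples come from one culture. Deviations of same-numbered samples correlated at 0.0504 (TRiC) and -0.0059 (PFD), which cannot decide whether they were paired. With the replicate block the TRiC pulldown had 5 members higher, KLHL5 added, and the PFD pulldown had 1 member higher and a median of -0.034. KLHL11 in the TRiC pulldown turned from -0.036 to 0.011 with library totals, 0.023 with cyclic loess and 0.029 with at least 100 counts, and KLHL3 for PFD from -0.88 to 0.28 with cyclic loess. With a library left out, the range crossed 0 for KBTBD2 with TRiC (-0.021 to 0.38) and, with PFD, for KBTBD2 (-1.50 to 0.19), KEAP1 (-0.033 to 0.18), KLHL17 (-0.026 to 0.32), KLHL21 (-0.28 to 0.49), KLHL29 (-0.67 to 0.039), KLHL3 (-2.17 to 0.19), KLHL5 (-0.29 to 0.031) and KLHL9 (-0.12 to 0.35). The spread between replicates limits the PFD line, where 8 and 13 of 37 members differed by over 2-fold between input and between pulldown replicates, and its cause was not tested.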
